A study of Mus musculus with 12 samples.

Results

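The MS4A family (membrane-spanning 4-domains, subfamily A) was read in 12 mouse RNA-seq libraries through 9 genes chosen by their symbols, Ms4a1, Ms4a2, Ms4a3, Ms4a4b, Ms4a4c, Ms4a6b, Ms4a6c, Ms4a6d and Ms4a7. They are 9 of the 54674 entries of the deposited matrix. No measured value entered the choice, although it was made with other results of these data known. The study set monocytic against polymorphonuclear myeloid-derived suppressor cells, immature myeloid cells that accumulate in animals with tumors. Its labels name 4 groups of 3 libraries, Ly6C tumor, Ly6C spleen, Ly6G tumor and Ly6G spleen, after the surface proteins Ly6C and Ly6G by which monocytic and polymorphonuclear cells are usually told apart. The labels give tissue and number only, so the tumor model, strain, age, sorting gate and any treatment of the animals are unknown here, and no group is labelled as tumor-free. Nothing states that libraries of a group came from separate animals. The p-values therefore set group differences against the spread between these libraries, which may be technical.

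MS4A proteins cross the membrane 4 times, with both ends inside the cell, and several of them sit beside receptors and change how these signal. Ms4a1 encodes CD20 of B cells, and Ms4a2 the beta chain of the high-affinity IgE receptor of mast cells and basophils. Ms4a3 is a gene of granulocyte-monocyte progenitors in the mouse, Ms4a4b is a T cell gene that encodes a partner of the costimulatory receptor GITR, and Ms4a6d and Ms4a7 are known from macrophages. In the spleen of mice with tumors, B and T cells, progenitors, monocytes and neutrophils lie side by side, and they express different members of the family.

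All 9 genes are protein-coding and lie within 391 kb of chromosome 19 (GRCm38, 11249675 to 11640851, in the GENCODE M21 annotation). From the low to the high end of that stretch the order is Ms4a1 (ENSMUSG00000024673, 11249675 to 11266241, minus strand), Ms4a7 (ENSMUSG00000024672, 11321039 to 11336146, minus strand), Ms4a4c (ENSMUSG00000024675, 11404770 to 11427246, plus strand) and Ms4a4b (ENSMUSG00000056290, 11443553 to 11467055, plus strand). Ms4a6c (ENSMUSG00000079419, 11469366 to 11482192, plus strand), Ms4a6b (ENSMUSG00000024677, 11516512 to 11531256, plus strand) and Ms4a6d (ENSMUSG00000024679, 11586604 to 11604849, minus strand) follow. Ms4a2 (ENSMUSG00000024680, 11615523 to 11623719) and Ms4a3 (ENSMUSG00000024681, 11629496 to 11640851), both on the minus strand, close the row. The family grew by duplication, and near copies remain.

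The sequences below show this for 2 pairs of neighbours whose levels are compared further on. They are the 250 bases before the start site in RefSeq (GRCm38.p6), 5′ to 3′ on the gene's plus strand, with the motifs found in them in capitals. In Ms4a4b (chr19:11443308-11443557) and Ms4a4c (chr19:11407411-11407660) the best local alignment covered 128 columns at 89.1% identity. In Ms4a6b (chr19:11518309-11518558) and Ms4a6c (chr19:11469118-11469367) it covered 182 columns at 83.5% identity. No other pair of the 7 members with an entry aligned over more than 28 columns.
Ms4a4b: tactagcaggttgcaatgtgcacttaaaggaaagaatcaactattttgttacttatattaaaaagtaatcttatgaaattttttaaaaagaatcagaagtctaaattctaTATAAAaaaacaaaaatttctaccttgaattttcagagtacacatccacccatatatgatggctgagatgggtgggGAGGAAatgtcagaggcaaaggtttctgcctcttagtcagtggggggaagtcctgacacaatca
Ms4a4c: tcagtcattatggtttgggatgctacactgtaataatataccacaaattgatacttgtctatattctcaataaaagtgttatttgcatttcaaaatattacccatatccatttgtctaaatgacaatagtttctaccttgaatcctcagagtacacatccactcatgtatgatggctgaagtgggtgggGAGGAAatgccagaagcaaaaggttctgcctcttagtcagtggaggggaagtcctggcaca
Ms4a6b: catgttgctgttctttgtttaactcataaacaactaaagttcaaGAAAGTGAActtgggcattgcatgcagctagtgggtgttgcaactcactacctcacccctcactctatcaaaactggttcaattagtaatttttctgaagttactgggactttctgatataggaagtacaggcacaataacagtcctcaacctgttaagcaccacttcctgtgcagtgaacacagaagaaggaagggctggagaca
Ms4a6c: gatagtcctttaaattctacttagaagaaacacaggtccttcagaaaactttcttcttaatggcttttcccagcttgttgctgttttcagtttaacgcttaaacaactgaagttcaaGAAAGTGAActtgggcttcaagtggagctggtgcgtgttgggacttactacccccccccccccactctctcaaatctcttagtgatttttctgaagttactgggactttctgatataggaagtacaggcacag

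Motifs were searched on both strands, and none of the 4 overlapped another in these windows. The ETS core GAGGAA, a match to sites of the myeloid and lymphoid factor PU.1, stood at -64 in Ms4a4b and at -61 in Ms4a4c. The letters GAAANNGAA, the core of an interferon-stimulated response element, stood at -206 in Ms4a6b and at -133 in Ms4a6c. Ms4a4b also held the TATA box letters TATAAA at -140, which Ms4a4c did not. Of 32536 promoter windows of the same length, 23.4% held GAGGAA, 7.15% GAAANNGAA and 12.3% TATAAA. The fourth motif, the C/EBP letters TTGCNNAA (9.57% of windows), was in none of these 4 windows. A match is a description of letters and not a bound site.

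Levels are FPKM (fragments scaled by gene length and by the mapped fragments of the library) as the authors deposited them. Changes are differences of log2(FPKM + 1) with the standard error of a limma model of the 4 groups, adjusted over 13610 genes that reached 1 FPKM in at least 3 libraries, and a gene passed at an adjusted p under 0.05. Of the 9 members, 6 reached that filter, Ms4a1, Ms4a3, Ms4a4c, Ms4a6b, Ms4a6c and Ms4a6d. Ms4a2, Ms4a4b and Ms4a7 did not. A member that reaches the filter only through the groups in which it is high, as Ms4a1 and Ms4a3 do, has to differ between groups, so counts over the 6 are a description.

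The libraries themselves set limits on what a member's level says. The summed levels of epithelial and fibroblast genes were high and those of leukocyte genes low in both tumor groups, and the part of other cells in this was not tested. The 8 epithelial genes summed to 753 to 1020 FPKM in Ly6C tumor and 446 to 754 in Ly6G tumor, nearly all of it the keratins Krt8 and Krt18, against 0.347 to 0.557 in Ly6C spleen and 0.917 to 1.23 in Ly6G spleen, while Epcam was listed at 0 in all 3 Ly6C tumor libraries. The 9 fibroblast genes, led by Col3a1, Fn1 and Sparc, summed to 348 to 596 FPKM in Ly6C tumor and 255 to 603 in Ly6G tumor, against 89.7 to 231 in Ly6C spleen and 6.2 to 10.1 in Ly6G spleen. Fn1 made up most of the Ly6C spleen sum, with 131, 226 and 81.9 FPKM in replicates 1 to 3. Fn1 was not higher in Ly6C tumor (-1.37, limma adjusted p = 0.051). Col3a1 and Sparc had at most 0.0336 and 0.0861 FPKM in Ly6C spleen. Of the 9 genes, 6 passed as higher in Ly6C tumor and 9 in Ly6G tumor. The 20 pan-leukocyte genes, led by Arhgdib, Coro1a and Cd52, summed to 174 to 345 FPKM in Ly6C tumor and 427 to 729 in Ly6G tumor, against 3950 to 4489 in Ly6C spleen and 4829 to 5030 in Ly6G spleen. The neutrophil gene Ly6g reached 131 to 209 FPKM even in Ly6C spleen, against 591 to 717 in Ly6G spleen, and the monocyte gene Ly6c2 did not pass between those groups (0.22, limma adjusted p = 0.38). All 10 neutrophil genes, led by S100a9, S100a8 and Camp, were lower in tumor in each label. In bulk samples, fewer cells of a type and less RNA per cell cannot be told apart.

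On the deposited scale 5 of the 6 tested members were lower in tumor in each label, Ms4a1, Ms4a3, Ms4a4c, Ms4a6b and Ms4a6c, a direction that turned for Ms4a6b and Ms4a6c in both labels and for Ms4a4c in Ly6C when libraries were rescaled to their pan-leukocyte genes. In Ly6C tumor against Ly6C spleen, the 5 lower members compare with 30.5% of all tested genes that were lower, and the median change of the 6 tested members was -2.50 beside 0.27 for all genes. In Ly6G tumor against Ly6G spleen, 5 were lower, where 24.7% of all genes were, with a median of -1.87 beside 0.43. Higher in tumor were 6289 of the 13610 tested genes in Ly6C and 7010 in Ly6G. Counts from marker lists in other paragraphs have the same background. Between the labels in spleen, 5 members were higher in Ly6C, where 22.1% of all genes were, and 1 was lower, where 8.59% were, with a median of 1.70 beside 0.11. In tumor 1 member was higher in Ly6C, where 5.8% of all genes were, with a median of 0.96 beside 0.04. Ms4a6d was the member that did not pass between tissues in either label, and Ms4a1 the member that was lower in Ly6C spleen than in Ly6G spleen. That rescaling moved the median change of all genes to 3.16 in Ly6C and 2.11 in Ly6G. Beside it the change was 0.73 for Ms4a4c, 1.18 for Ms4a6b and 0.29 for Ms4a6c in Ly6C, and 0.39 for Ms4a6b and 0.43 for Ms4a6c in Ly6G, each below that median, while Ms4a1 and Ms4a3 in both labels and Ms4a4c in Ly6G were still lower in tumor.

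**Figure D1:**
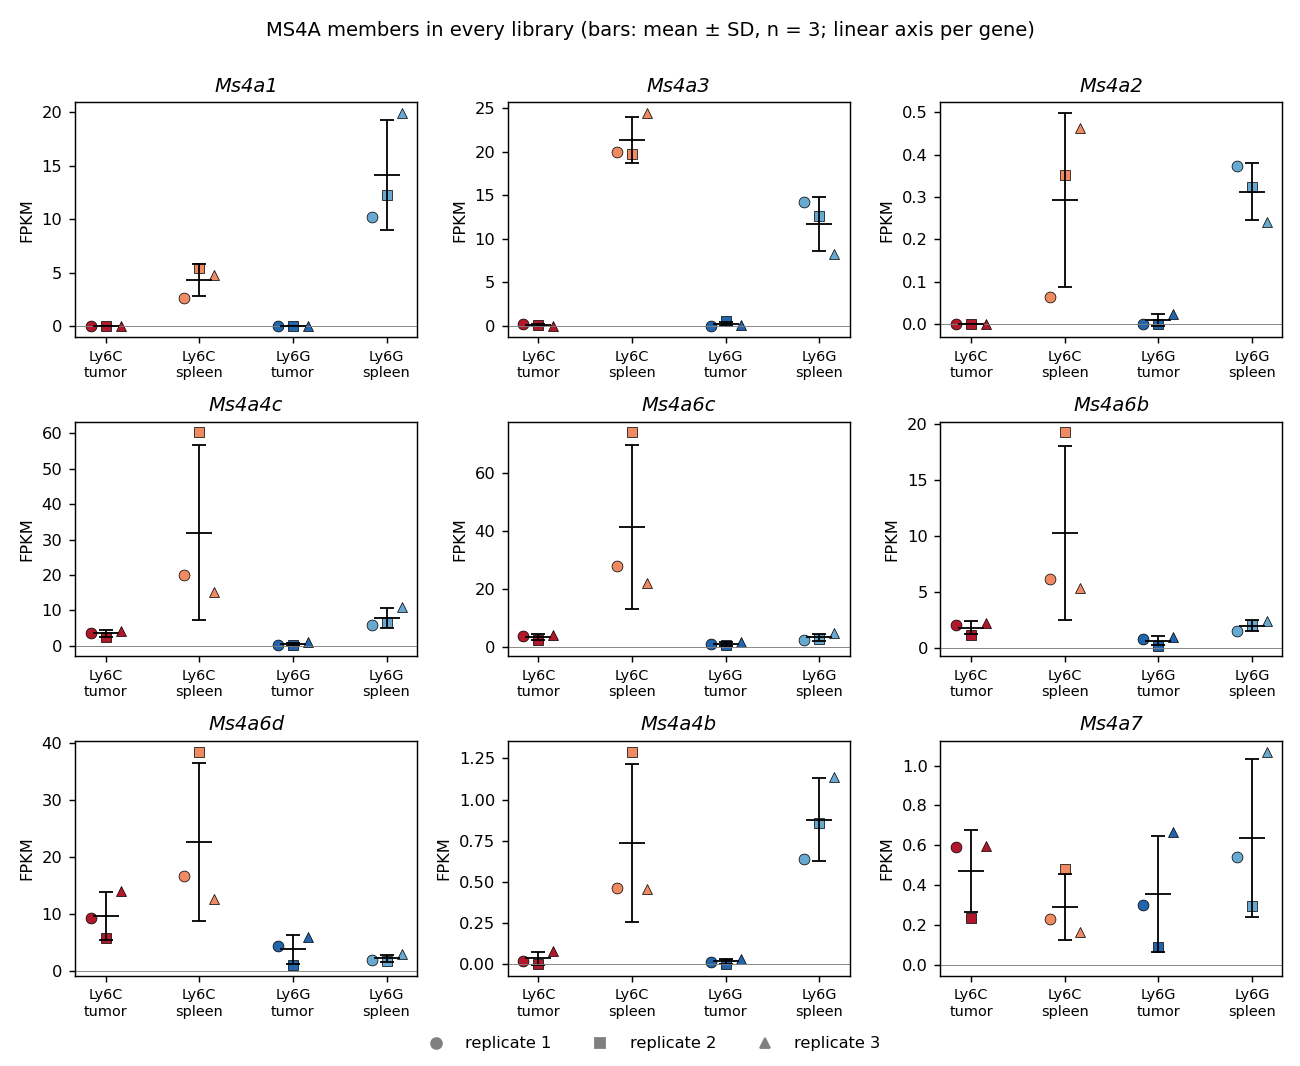
FPKM of the 9 members in each of the 12 libraries, with 1 panel and 1 linear axis per gene. Symbols mark replicates 1, 2 and 3, and bars the mean ± SD of 3 libraries. Ms4a1 and Ms4a3 lie at or near 0 in all 6 tumor libraries, Ms4a4c, Ms4a6b, Ms4a6c and Ms4a6d are highest in Ly6C spleen replicate 2, and Ms4a2, Ms4a4b and Ms4a7 stay under 1.3 FPKM.

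**Figure D2:**
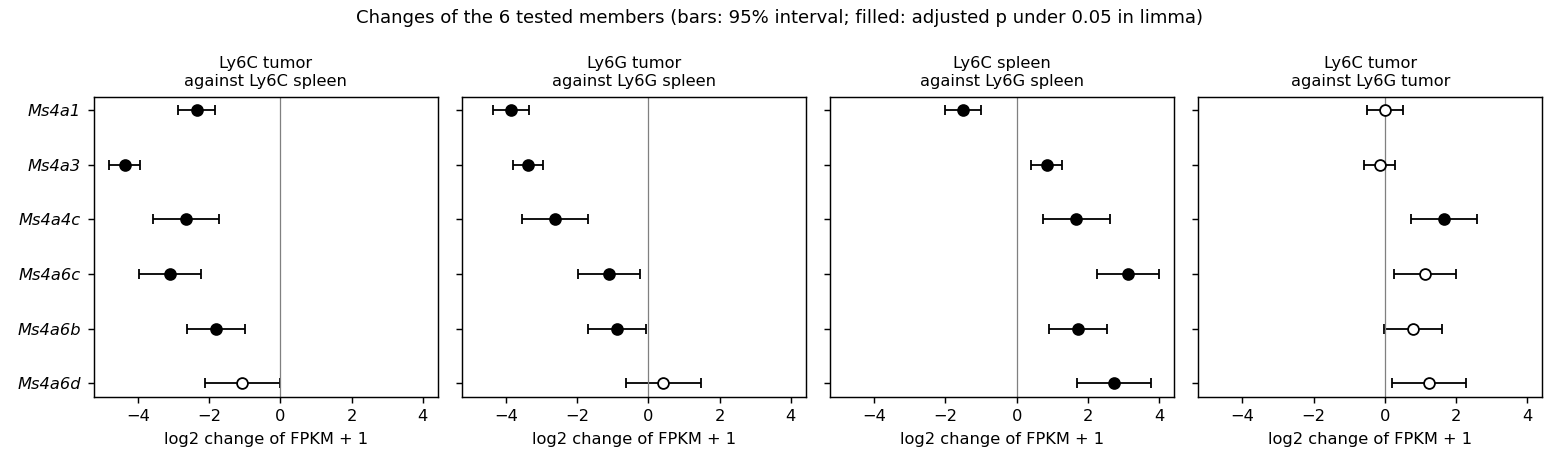
Changes of the 6 tested members on the log2(FPKM + 1) scale in 4 comparisons, with 95% intervals of the limma model; filled points passed at an adjusted p under 0.05. Of the 6 members, 5 pass below 0 in each label between tumor and spleen as deposited, and Ms4a6d is the member that does not; on a scale set by pan-leukocyte genes the signs of Ms4a6b and Ms4a6c in both labels, and of Ms4a4c and Ms4a6d in Ly6C, turn.

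Ms4a1 was a spleen transcript, higher in Ly6G than in Ly6C. It had 0.0223, 0 and 0 FPKM in Ly6C tumor replicates 1 to 3, against 2.60, 5.45 and 4.81 in Ly6C spleen. Ly6G tumor libraries had 0, 0 and 0.00883 FPKM and those of Ly6G spleen 10.2, 12.3 and 19.9. The order of the groups was thus Ly6G spleen, Ly6C spleen and then both tumor groups, which overlapped, while neither spleen group overlapped another group. The change was -2.35 ± 0.24 in Ly6C tumor against Ly6C spleen (limma adjusted p = 2.31e-06) and -3.86 ± 0.24 in Ly6G tumor against Ly6G spleen (limma adjusted p = 3.96e-08). In Ly6C spleen against Ly6G spleen it was -1.51 ± 0.24 (limma adjusted p = 0.000854).

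Other B cell genes had the same order of groups. The 14 B cell genes, led by Ighm, Cd79a and Cd79b, summed to 5.43 to 8.91 FPKM in Ly6C tumor and 5.5 to 8.62 in Ly6G tumor, against 273 to 419 in Ly6C spleen and 808 to 1382 in Ly6G spleen. All 14 were lower in tumor in each label and all 14 were lower in Ly6C spleen than in Ly6G spleen. Ms4a1 made up 0.95% to 1.30% of that sum in Ly6C spleen and 1.26% to 1.44% in Ly6G spleen. The genes whose values over the 12 libraries lay nearest to those of Ms4a1 were Mzb1, Cd2 and Gimap6. Mzb1 is an endoplasmic reticulum protein of B and plasma cells, Cd2 an adhesion receptor of lymphocytes and Gimap6 a lymphocyte GTPase. The root mean square difference of the centred log2(FPKM + 1) values was 0.144, 0.182 and 0.22 for them, where that of Ms4a1 from its own mean was 1.66.

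Ms4a2 was scarce in every library. It was listed at 0 in all 3 Ly6C tumor libraries, against 0.0634, 0.351 and 0.463 FPKM in Ly6C spleen. The values were 0, 0 and 0.0244 FPKM in Ly6G tumor, against 0.373, 0.325 and 0.241 in Ly6G spleen. In neither label did tumor and spleen overlap, whereas the spleen groups of the labels did. Without the expression filter the changes were -0.36 ± 0.09 in Ly6C (limma adjusted p = 0.0105) and -0.38 ± 0.09 in Ly6G (limma adjusted p = 0.00738).

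The partners of Ms4a2 in the IgE receptor were not matched in level. Fcer1a, the chain that binds IgE, did not exceed 0.435 FPKM in any library. Fcer1g, the signaling chain that other Fc receptors also use, averaged 69.1 ± 28.4 FPKM in Ly6C tumor against 565 ± 49.5 in Ly6C spleen, and 156 ± 44.5 in Ly6G tumor against 973 ± 179 in Ly6G spleen (SD, n = 3 each). Of the 7 tested genes of IgE receptor signaling, led by Fcer1g, Plcg2 and Lyn, 7 were lower in Ly6C tumor and 6 in Ly6G tumor. Mast cell and basophil genes did not move together: of 4 tested, 2 were lower in Ly6C tumor than in Ly6C spleen, and in Ly6G tumor 2 were higher and 2 lower than in Ly6G spleen. Of all 13610 tested genes, 4154 were lower in Ly6C tumor, and 7010 were higher and 3357 lower in Ly6G tumor. Tpsb2, a mast cell tryptase, had 3.67, 0.327 and 10.6 FPKM in Ly6G tumor, where Ms4a2 was at 0 to 0.0244, against 0.0417 to 0.049 in Ly6G spleen. Hdc and Kit, the others of the 3 most abundant of that list, were lower in tumor in each label. Prss34, a basophil protease, was at 0 to 0.116 FPKM in the 6 tumor libraries, against 0.214 to 0.743 in Ly6C spleen and 0.751 to 2.16 in Ly6G spleen.

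Ms4a3 was the member with the largest fall in Ly6C. It had 0.179, 0.0551 and 0 FPKM in Ly6C tumor, against 19.9, 19.8 and 24.5 in Ly6C spleen. In Ly6G tumor it had 0.0397, 0.517 and 0.0709 FPKM, against 14.3, 12.6 and 8.30 in Ly6G spleen. Every spleen library lay far above every tumor library, and the 3 Ly6C spleen libraries lay above the 3 of Ly6G spleen. The change was -4.37 ± 0.20 in Ly6C (limma adjusted p = 3.01e-09) and -3.39 ± 0.20 in Ly6G (limma adjusted p = 2.74e-08), and in Ly6C spleen against Ly6G spleen it was 0.84 ± 0.20 (limma adjusted p = 0.00804). The difference between the spleen groups did not pass with a pseudocount of 0.1 or on the pan-leukocyte scale.

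The summed level of progenitor genes lay in the same order. The 10 granulocyte-monocyte progenitor genes, led by Cebpe, Fcnb and Prtn3, summed to 8.21 to 11.4 FPKM in Ly6C tumor and 9.52 to 24.8 in Ly6G tumor, against 903 to 1212 in Ly6C spleen and 382 to 518 in Ly6G spleen. All 9 tested ones were lower in tumor in each label, and 4 were higher in Ly6C spleen than in Ly6G spleen, Cebpe and Prtn3 among them. The other 5 did not pass there, Fcnb (1.24, limma adjusted p = 0.117) and Mpo (0.40, limma adjusted p = 0.247) among them. In Ly6G tumor, replicate 2 was highest both for Ms4a3 and for that sum, of which Cebpe gave 10.5 and Fcnb 6.82 FPKM. The peak was not particular to progenitor genes. The 10 neutrophil genes summed to 4273, 8505 and 7105 FPKM in Ly6G tumor replicates 1 to 3, with 4.17, 88.9 and 7.77 for Camp. Cd34 of the progenitor list was lowest in replicate 2, at 0.182 FPKM. Ms4a3 made up 1.65% to 2.19% of the progenitor sum in Ly6C spleen and 2.17% to 2.76% in Ly6G spleen. The genes nearest to Ms4a3 over the 12 libraries were E2f2, a cell cycle factor (0.213), Plxnc1, a semaphorin receptor (0.218), and Mpo, the myeloperoxidase of primary granules (0.239), where the root mean square of Ms4a3 about its own mean was 1.98.

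Ms4a4c was high in Ly6C spleen, and alone among the members it also passed between the labels in tumor. It had 3.72, 2.47 and 4.27 FPKM in Ly6C tumor, against 20.1, 60.3 and 15.3 in Ly6C spleen. Ly6G tumor libraries had 0.243, 0.132 and 0.968 FPKM and those of Ly6G spleen 5.90, 6.74 and 11.0. No group overlapped another, and levels fell in the order Ly6C spleen, Ly6G spleen, Ly6C tumor, Ly6G tumor. The change was -2.64 ± 0.43 in Ly6C (limma adjusted p = 0.000124) and -2.62 ± 0.43 in Ly6G (limma adjusted p = 0.000138). In Ly6C against Ly6G it was 1.68 ± 0.43 in spleen (limma adjusted p = 0.0117, but 0.0764 when 2 groups were fitted at a time and 0.0596 on the pan-leukocyte scale) and 1.65 ± 0.43 in tumor (limma adjusted p = 0.0277). The call in tumor was lost without any 1 of the 3 Ly6C tumor libraries or of Ly6G tumor replicates 1 and 2 (limma adjusted p = 0.0547 to 0.0951), and the value then lay between 1.5 and 1.83. Pld4, a nuclease of the endolysosome (0.351), Clec4a3, a C-type lectin receptor (0.432), and Tifab (0.543) were the nearest genes, beside a root mean square of 1.64 for Ms4a4c itself.

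Ms4a4b, whose upstream sequence is the near copy of that of Ms4a4c, did not share its level. It had 0.0175, 0 and 0.0781 FPKM in Ly6C tumor, against 0.460, 1.29 and 0.455 in Ly6C spleen. The values were 0.0121, 0 and 0.0288 FPKM in Ly6G tumor, against 0.636, 0.860 and 1.14 in Ly6G spleen. Tumor and spleen did not overlap in either label and the spleen groups of the labels did, with changes of -0.72 ± 0.16 in Ly6C (limma adjusted p = 0.00439) and -0.88 ± 0.16 in Ly6G (limma adjusted p = 0.00121) without the expression filter. The 13 T and NK cell genes, led by Trbc2, Cd2 and Nkg7, summed to 0.375 to 0.956 FPKM in Ly6C tumor and 0.943 to 1.75 in Ly6G tumor, against 15.1 to 26.7 in Ly6C spleen and 46.6 to 80.4 in Ly6G spleen. All 9 tested ones were lower in tumor in each label, and 8 were lower in Ly6C spleen than in Ly6G spleen. Of the 13, Cd2 was also among the genes nearest to Ms4a1, and the part of B cells in this sum was not tested. Ms4a4b made up 1.36% to 1.47% of that sum in Ly6G spleen, and in Ly6C spleen 3.05%, 4.83% and 1.84% in replicates 1 to 3. The transcripts of Ms4a4c shared 7.73% of their 50-base words with those of Ms4a4b, and Ms4a4c was also highest in Ly6C spleen replicate 2. Whether reads of Ms4a4c entered the Ms4a4b value there was not tested.

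**Figure D3:**
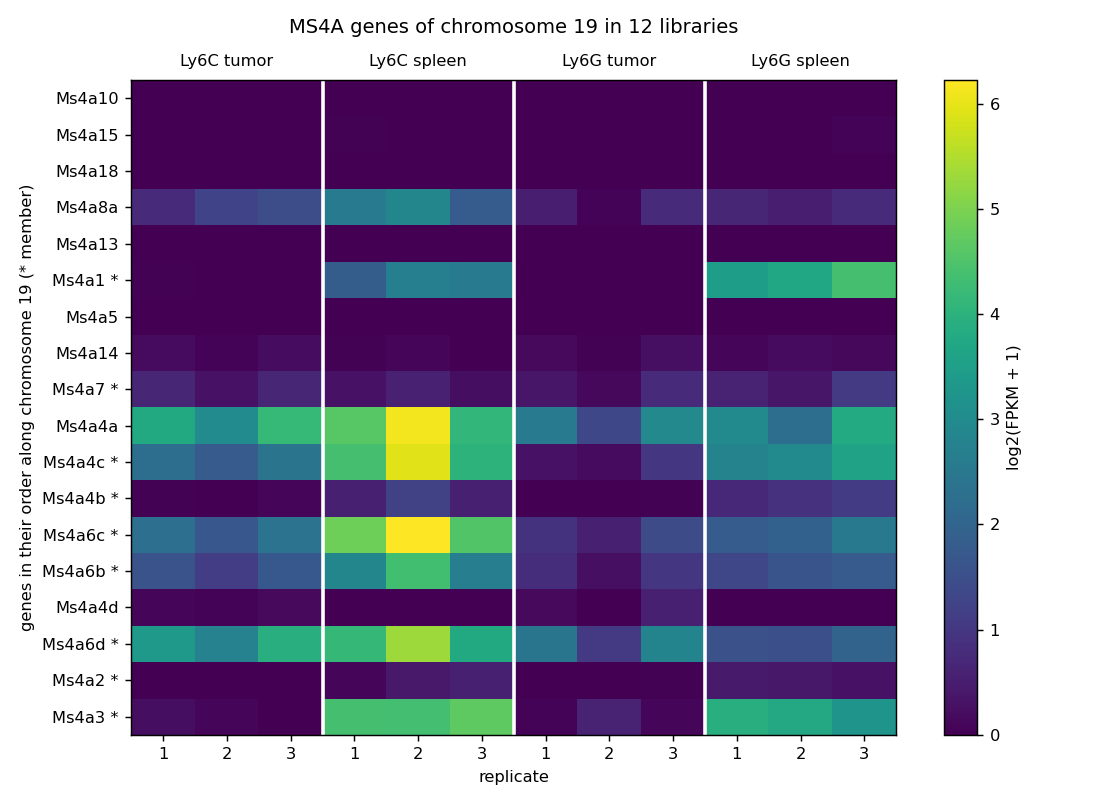
Levels of the 9 members (asterisk) and of 9 further MS4A genes of chromosome 19 in their order along the chromosome, as log2(FPKM + 1) in colour, with 3 libraries per group. Ms4a4b, at most 1.29 FPKM, lies between Ms4a4c and Ms4a6c, which reach 60.3 and 73.9 FPKM.

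Ms4a6c had the largest difference between the labels in spleen. It had 3.82, 2.21 and 4.13 FPKM in Ly6C tumor, against 27.9, 73.9 and 22.1 in Ly6C spleen. In Ly6G tumor it had 0.896, 0.464 and 1.75 FPKM, against 2.49, 2.85 and 4.71 in Ly6G spleen. Ly6C spleen stood above all other groups and Ly6G tumor below them, whereas Ly6C tumor and Ly6G spleen overlapped. The change was 3.12 ± 0.40 in Ly6C spleen against Ly6G spleen (limma adjusted p = 0.00032) and -3.10 ± 0.40 in Ly6C tumor against Ly6C spleen (limma adjusted p = 1.89e-05). In Ly6G tumor against Ly6G spleen it was -1.11 ± 0.40 (limma adjusted p = 0.0235), a call lost without Ly6G spleen replicate 3 or without Ly6G tumor replicate 1 or 2 (limma adjusted p = 0.0573 to 0.0899). In Ly6C tumor against Ly6G tumor it was 1.13 ± 0.40 (limma adjusted p = 0.0769) with groups that did not overlap, and it passed without Ly6C spleen replicate 2 (limma adjusted p = 0.0187).

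The value of Ms4a6c may include reads of a second annotated gene. BE692007 overlaps Ms4a6c on the opposite strand, and its transcripts, read on both strands, hold 49.6% of the 50-base words of Ms4a6c. BE692007 had 0.649, 0.362 and 0.859 FPKM in Ly6C tumor, against 3.35, 7.71 and 2.44 in Ly6C spleen. Ly6G tumor libraries had 0.325, 0.115 and 0.451 FPKM and those of Ly6G spleen 2.05, 2.32 and 3.67. How reads in the shared part were divided is not given in the sources used here, so the 2 genes cannot be told apart there. Arhgef37 (0.38), Tppp3 (0.545) and Tifab (0.582) had the values nearest to those of Ms4a6c, beside its own root mean square of 1.64.

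Ms4a6b, with the near copy of the Ms4a6c upstream sequence, was lower than Ms4a6c in every library, but not by a fixed factor. The ratio of Ms4a6c to Ms4a6b was 3.83 to 4.50 in Ly6C spleen and 1.18 to 2.36 over the other groups. Ms4a6b had 2.01, 1.20 and 2.27 FPKM in Ly6C tumor, against 6.19, 19.3 and 5.36 in Ly6C spleen. The values were 0.760, 0.196 and 0.972 FPKM in Ly6G tumor, against 1.49, 2.06 and 2.45 in Ly6G spleen. Here too Ly6C spleen was highest and Ly6G tumor lowest without overlap, and Ly6C tumor and Ly6G spleen overlapped. The change was -1.81 ± 0.37 in Ly6C between the tissues (limma adjusted p = 0.00084) and 1.71 ± 0.37 in Ly6C spleen against Ly6G spleen (limma adjusted p = 0.00539, but 0.0531 when 2 groups were fitted at a time and 0.0836 on the pan-leukocyte scale). In Ly6G between the tissues it was -0.89 ± 0.37 (limma adjusted p = 0.0474), which passed in 9 of 22 alternatives. It was lost without any 1 of the Ly6C tumor or Ly6G spleen libraries and without Ly6G tumor replicate 1 or 2 (limma adjusted p = 0.0515 to 0.162). In Ly6C tumor against Ly6G tumor it was 0.79 ± 0.37 (limma adjusted p = 0.168), and without Ly6C spleen replicate 2 it passed (limma adjusted p = 0.0281). Ptpro (0.255), a receptor phosphatase, Kcna3 (0.297), a potassium channel, and Ifi30 (0.318), a lysosomal thiol reductase, were nearest to it, beside its own root mean square of 1.04.

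Ms4a6d had the smallest changes between the tissues of the 6 tested members. It had 9.30, 5.78 and 14 FPKM in Ly6C tumor, against 16.7, 38.5 and 12.8 in Ly6C spleen. In Ly6G tumor it had 4.36, 1.08 and 6.04 FPKM, against 1.91, 1.86 and 2.96 in Ly6G spleen. The tissues overlapped in both labels, and so did the labels in tumor, whereas the 3 Ly6C spleen libraries lay above the 3 of Ly6G spleen. The change was -1.07 ± 0.48 in Ly6C tumor against Ly6C spleen (limma adjusted p = 0.0592) and 0.42 ± 0.48 in Ly6G tumor against Ly6G spleen (limma adjusted p = 0.44). In Ly6C it passed as lower in tumor with a pseudocount of 5, with median-of-ratios factors, after quantile normalization and without Ly6C spleen replicate 3, Ly6C tumor replicate 3 or Ly6G tumor replicate 2 or 3 (limma adjusted p = 0.0203 to 0.0493, values of -1.38 to -0.84). On the pan-leukocyte scale it passed as higher in tumor in both labels, with 2.45 in Ly6C (limma adjusted p = 1.21e-05) and 2.05 in Ly6G (limma adjusted p = 0.000143), beside medians of 3.16 and 2.11 for all genes. In Ly6C against Ly6G it was 2.73 ± 0.48 in spleen (limma adjusted p = 0.00157) and 1.25 ± 0.48 in tumor (limma adjusted p = 0.0986). Vcan, a proteoglycan (0.407), Ccl9, a chemokine (0.424), and Fcgr1, an Fc receptor of monocytes and macrophages (0.448), were nearest, beside its own root mean square of 1.21.

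Ms4a7 was low everywhere and followed no group. It had 0.590, 0.234 and 0.594 FPKM in Ly6C tumor, against 0.231, 0.479 and 0.167 in Ly6C spleen. Ly6G tumor libraries had 0.302, 0.0928 and 0.668 FPKM and those of Ly6G spleen 0.542, 0.296 and 1.07. All 4 groups overlapped, and without the expression filter the changes were 0.19 ± 0.20 in Ly6C (limma adjusted p = 0.52) and -0.27 ± 0.20 in Ly6G (limma adjusted p = 0.322). The 13 macrophage genes, led by Apoe, C1qa and Cd68, summed to 133 to 257 FPKM in Ly6C tumor and 101 to 323 in Ly6G tumor, against 175 to 390 in Ly6C spleen and 289 to 675 in Ly6G spleen. Of them, 5 were lower in Ly6C tumor and 7 in Ly6G tumor, where 30.5% and 24.7% of all tested genes were.

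Within 3 groups, replicate 2 stood apart for several members. In Ly6C spleen, replicate 2 held 3.41 times the mean of replicates 1 and 3 for Ms4a4c, 3.34 times for Ms4a6b, 2.96 times for Ms4a6c and 2.61 times for Ms4a6d, but 0.891 times for Ms4a3 and 1.47 times for Ms4a1. Of the 11 monocyte genes, 7 exceeded 2 times that mean, up to 3.37 for Ccr2 (median 2.42), but not Lyz2, Cd14 and Ly6c2, with 1.10, 0.766 and 1.16 times. The 20 pan-leukocyte genes had 0.677 to 1.38 (median 0.967). Without that library the change in Ly6C tumor against Ly6C spleen was -2.07 for Ms4a4c, -1.28 for Ms4a6b, -2.59 for Ms4a6c and -0.62 for Ms4a6d, and no call of that comparison was lost. In Ly6C spleen against Ly6G spleen the change without it was 1.10 for Ms4a4c, 1.19 for Ms4a6b, 2.60 for Ms4a6c and 2.28 for Ms4a6d, and all 4 still passed. In Ly6C tumor, replicate 2 held 0.617 times the mean of replicates 1 and 3 for Ms4a4c, 0.561 for Ms4a6b and 0.557 for Ms4a6c. It held 0.496 times that mean for Ms4a6d and 0.396 times for Ms4a7. In that library the 13 macrophage genes had 0.412 to 0.99 (median 0.508) and the 11 monocyte genes 0.362 to 0.858 (median 0.504). The 20 pan-leukocyte genes were low as well, with 0.266 to 0.726 (median 0.548). In Ly6G tumor the ratios were 0.218 for Ms4a4c, 0.227 for Ms4a6b, 0.351 for Ms4a6c, 0.207 for Ms4a6d and 0.191 for Ms4a7. Ms4a3 went the other way, with 9.34 at levels under 1 FPKM. There the macrophage genes had 0.169 to 0.843 (median 0.243) and the monocyte genes 0.309 to 1.27 (median 0.54). The pan-leukocyte genes had 1.01 to 2.09 (median 1.19). In Ly6C spleen, where Ms4a7 was at 2.41 times, the macrophage genes had 0.893 to 2.82 (median 1.33).

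The whole monocyte list moved as follows. Its 11 genes, led by Lyz2, Cd14 and Ly6c2, summed to 537 to 1006 FPKM in Ly6C tumor and 1306 to 2093 in Ly6G tumor, against 7831 to 9791 in Ly6C spleen and 6081 to 8901 in Ly6G spleen. Single genes carried these sums. Most of the spleen sums was Lyz2, with means of 8099 FPKM in Ly6C and 6794 in Ly6G. Most of the Ly6G tumor sum was Cd14, with a mean of 1424 FPKM against 455 in Ly6C tumor. In Ly6C tumor 9 of the 11 were lower than in Ly6C spleen and 1 higher, and in Ly6G tumor 6 were lower than in Ly6G spleen and 1 higher. Of all 13610 tested genes, 4154 were lower and 6289 higher in Ly6C tumor, and 3357 lower and 7010 higher in Ly6G tumor. Between the spleen groups 4 of the 11 were higher in Ly6C and 1 lower, beside 3002 and 1169 of all tested genes. The part of the number of monocytes or progenitors in these members' changes was not tested.

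Ratios between members within a library do not depend on how libraries are scaled, and those to Ms4a6d were lower in tumor. The ratio of Ms4a6c to Ms4a6d was 0.411, 0.383 and 0.295 in Ly6C tumor, against 1.67, 1.92 and 1.73 in Ly6C spleen. It was 0.205, 0.43 and 0.289 in Ly6G tumor, against 1.31, 1.53 and 1.59 in Ly6G spleen. Ms4a6d thus exceeded Ms4a6c in all 6 tumor libraries and Ms4a6c exceeded Ms4a6d in all 6 spleen libraries, on a per-length scale. BE692007 holds 49.6% of the 50-base words of Ms4a6c, and how reads there were divided is not given. The level of this ratio may depend on that. The mean log2 difference was -2.31 (exact permutation test of the tissue within each label, two-sided p = 0.005, the smallest that 400 arrangements allow, adjusted p = 0.015 over 12 tests of 6 pairs).

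The other ratios to Ms4a6d were also lower in tumor than in spleen. That of Ms4a4c was 0.0556 to 0.426 over the tumor libraries and 1.20 to 3.73 over the spleen libraries, a mean log2 difference of -3.44. That of Ms4a6b was 0.161 to 0.216 in tumor and 0.371 to 1.11 in spleen, a mean log2 difference of -1.76. In spleen it exceeded 1 in Ly6G replicate 2 only. Both had the same exact permutation p = 0.005 and adjusted p = 0.015, as had Ms4a4c to Ms4a6b, with 0.319 to 2.06 in tumor and 2.85 to 4.51 in spleen (-1.68). The ratios, chosen after the values were seen, rest in Ly6G tumor on levels under 1 FPKM for Ms4a4c and Ms4a6b in all 3 libraries and for Ms4a6c in replicates 1 and 2. The 4 that passed kept an unadjusted exact permutation p under 0.05 with 1 FPKM added to both genes. Leaving out 1 library could not raise p above 0.05, as tumor and spleen did not overlap in these ratios within either label.

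The ratio of Ms4a6c to Ms4a4c depended on the label as well as on the tissue. It was 1.03, 0.898 and 0.967 in Ly6C tumor and 1.80 to 3.69 in Ly6G tumor. It was 1.22 to 1.45 in Ly6C spleen and 0.422 to 0.426 in Ly6G spleen. In spleen it was therefore higher in Ly6C and in tumor lower in Ly6C, and neither the tissue (p = 0.1) nor the label (p = 0.99) passed in the exact permutation test, which averages over the other factor. Ms4a6c to Ms4a6b was 1.82 to 1.90 in Ly6C tumor and 3.83 to 4.50 in Ly6C spleen, against 1.18 to 2.36 in Ly6G tumor and 1.38 to 1.92 in Ly6G spleen, with exact permutation p = 0.06 for the tissue and 0.035 for the label (adjusted p = 0.12 and 0.084).

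**Figure D4:**
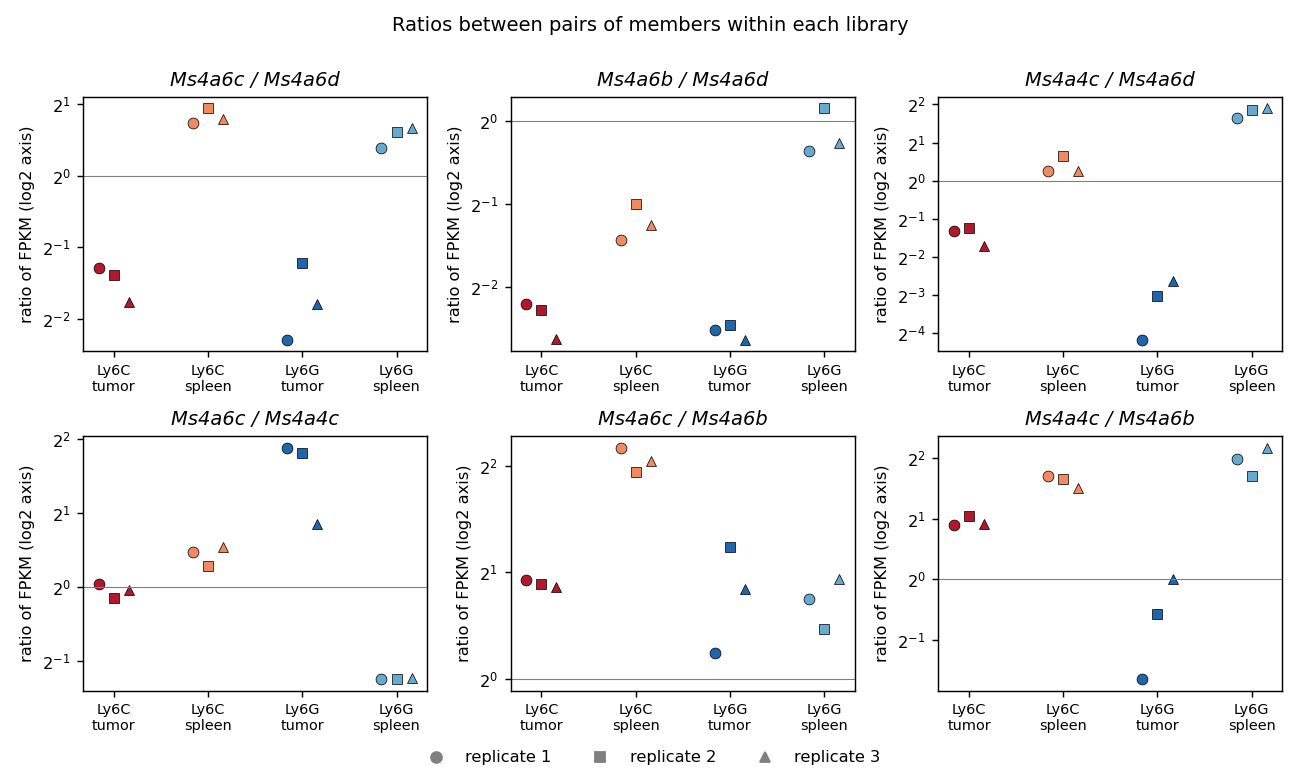
Ratios of FPKM between 6 pairs of members within each library, on log2 axes, with symbols for replicates 1, 2 and 3 and a grey line at a ratio of 1. The 3 ratios to Ms4a6d are lower in each of the 6 tumor libraries than in each of the 6 spleen libraries.

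Relatives outside the 9 members did not all move alike. Of 11, 4 were listed at 0 in all 12 libraries (Ms4a5, Ms4a10, Ms4a13 and Ms4a18) and 4 were tested. Ms4a4a, which lies next to Ms4a4c, had 12.8, 7.02 and 16.9 FPKM in Ly6C tumor, against 23.5, 68.6 and 16.4 in Ly6C spleen. The values were 4.98, 1.53 and 6.60 FPKM in Ly6G tumor, against 6.72, 3.78 and 13 in Ly6G spleen. It passed in Ly6C spleen against Ly6G spleen (1.95, limma adjusted p = 0.0235) and not between the tissues. Ms4a8a was lower in Ly6C tumor than in Ly6C spleen (-1.26, limma adjusted p = 0.000994) and higher in Ly6C spleen than in Ly6G spleen (1.78, limma adjusted p = 0.000698). Tmem176b and Tmem176a, 4-span proteins related to the family, went the other way. Tmem176b averaged 49.6 ± 2.28 FPKM in Ly6C tumor against 8.17 ± 5.46 in Ly6C spleen, and 36.2 ± 4.82 in Ly6G tumor against 3.40 ± 1.25 in Ly6G spleen (SD, n = 3 each). Its change was 2.63 in Ly6C (limma adjusted p = 1.85e-05) and 3.11 in Ly6G (limma adjusted p = 4.89e-06), and that of Tmem176a 2.55 (limma adjusted p = 2.52e-06) and 2.83 (limma adjusted p = 1.13e-06).

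Whether the tumor-spleen change differed between the labels was tested as an interaction. Of the 6 tested members, 1 had a higher change in Ly6C than in Ly6G, where 6.02% of all genes had, and 2 a lower one, where 15.8% had. For Ms4a1 the difference was 1.51 ± 0.33 (limma adjusted p = 0.0091) and for Ms4a3 -0.99 ± 0.28 (limma adjusted p = 0.0272). As both are near 0 in both tumor groups, these values restate their differences between the spleen groups. The call for Ms4a3 was lost without Ly6C spleen replicate 3, Ly6C tumor replicate 2 or 3 or Ly6G tumor replicate 2 (limma adjusted p = 0.0548 to 0.065), and also with a pseudocount of 0.1, without the filter, with median-of-ratios factors, after quantile normalization and on the pan-leukocyte scale (limma adjusted p = 0.0668 to 0.167). For Ms4a6c it was -1.99 ± 0.56 (limma adjusted p = 0.0273), a call lost without Ly6C tumor replicate 2, Ly6G spleen replicate 1 or 2 or Ly6G tumor replicate 3 (limma adjusted p = 0.0526 to 0.0645), and also with a pseudocount of 0.1, without the filter and after quantile normalization (limma adjusted p = 0.0564 to 0.11). On the pan-leukocyte scale it was -0.14 (limma adjusted p = 0.835). Ms4a4c had -0.02 ± 0.60 (limma adjusted p = 0.983), Ms4a6b -0.92 ± 0.53 (limma adjusted p = 0.234) and Ms4a6d -1.48 ± 0.67 (limma adjusted p = 0.138).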

How the data were processed

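Per the labels' protocols, total RNA of 12 samples went into Illumina libraries read from both ends. The authors deposited 1 matrix of FPKM per gene and library. HISAT2 2.0.5, featureCounts 1.5.0-p3 and the build GRCm38 are named per the submitters' processing notes. For the FPKM, the tool, annotation and strand setting were not given in the sources used here. Symbols were taken from GENCODE M21, which matched 54038 of 54104 Ensembl identifiers; 570 assembled loci were left out. Total FPKM per library was 331681 to 449309. Low values fell within 0.05 steps of a whole multiple of 1 read in 27.5% to 29.3% of cases, so reads were not recovered, depth is unknown and no counting interval is given.

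Values were tested as log2(FPKM + 1), which understates changes of low genes, with limma 3.58.1 (R 4.3.3) with a variance trend, in 1 model of 4 group means, two-sided, with Benjamini-Hochberg adjustment over the 13610 genes at 1 FPKM or more in 3 libraries or more. In simulated data of 13610 genes, 200 were raised in Ly6C tumor by a log2 change of 1 or 2. Against Ly6C spleen, 74.5% and 95.5% of them were recovered, with 5.1% and 4.5% false among the calls. In the real comparison 6289 genes were called higher and 4154 lower, so these rates may not hold there. All members are named; of marker lists the 3 genes with the highest mean; as most alike, the 3 genes with the smallest root mean square difference of centred log2(FPKM + 1), predicted genes left out. Fcer1a, Prss34, Ly6g, Ms4a8a, BE692007, Ccr2 and Cd34 were named after their values were seen. The members and lists were chosen with earlier results of these data known. Ratios between members were tested by exact permutation. Shared sequence was counted as 50-base words of the GENCODE transcripts, with the transcripts of other genes read on both strands. Upstream sequences were aligned locally with Biopython 1.88 (match 2, mismatch -3, gap opening -5, extension -2). Alternatives were a pseudocount of 0.1 or 5, no filter or one at 5 FPKM, quantile normalization, an equal sum per library (TPM scale), pan-leukocyte rescaling, median-of-ratios factors, a block for the replicate number, separate fits of 2 groups and leaving out each library in turn.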

Additional observations from a re-analysis of the deposited data

Results flagged for a closer look

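For 3 members the tumor-spleen change differed between the labels by a test of that difference in limma. For Ms4a1 the Ly6C change exceeded the Ly6G change by 1.51 on the log2 scale (adjusted p = 0.0091), with all 3 Ly6C spleen libraries below all 3 Ly6G spleen libraries. For Ms4a3 the difference was -0.99 (adjusted p = 0.0272), with all 3 Ly6C spleen libraries above all 3 of Ly6G spleen. For Ms4a6c it was -1.99 (adjusted p = 0.0273), with 22.1 to 73.9 FPKM in Ly6C spleen and 2.49 to 4.71 FPKM in Ly6G spleen. The calls of Ms4a3 and Ms4a6c were kept in 12 and 13 of 21 alternatives, and that of Ms4a1 in all 21. As Ms4a1 and Ms4a3 are near 0 in both tumor groups, their values restate the differences between the spleen groups.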

How the results depend on the processing

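Over 22 alternatives (21 for the interaction), the values of the 6 tested members kept direction and side of the threshold in 569 cases, lost the call in 47, gained it in 16 and changed sign in 22. In 7 of the 22 the reported value or the alternative passed, all on the pan-leukocyte scale: Ms4a4c 0.73, Ms4a6b 1.18, Ms4a6c 0.29 and Ms4a6d 2.45 in Ly6C between the tissues, Ms4a6b 0.39 and Ms4a6c 0.43 in Ly6G, and Ms4a4c 1.79 in the interaction. In the other 15 neither passed. They were 0.0129 for Ms4a3 in Ly6C tumor against Ly6G tumor and, in the interaction, 0.79 for Ms4a6b and 0.40 for Ms4a6d on the pan-leukocyte scale, and -0.14 for Ms4a6d in Ly6G between the tissues after quantile normalization. The interaction of Ms4a4c was 1.21 with a pseudocount of 0.1, 0.23 from TPM values, 0.20 after quantile normalization, 0.079 under median-of-ratios factors and -0.40 to 0.55 without 1 library. Without 1 library, Ly6C tumor against Ly6G tumor was -0.0042 to 0.0116 for Ms4a1 and -0.2448 to 0.0275 for Ms4a3. Of the label differences in ratios, that of Ms4a4c to Ms4a6d was -0.32 with 1 FPKM added, and that of Ms4a6c to Ms4a4c -0.1164 to 0.1418 without 1 library. The number of members called in Ly6C tumor against Ly6G tumor, 1 as reported, was 2 with a pseudocount of 0.1, 0 with a pseudocount of 5, 0 without a filter, 4 on the pan-leukocyte scale and 2 with 2 groups at a time. Leaving out 1 library gave 0 to 3. In Ly6C spleen against Ly6G spleen 3 of 6 were called on the pan-leukocyte scale, 4 with 2 groups at a time and 5 with a pseudocount of 0.1. In Ly6G tumor against Ly6G spleen 3 were called with a pseudocount of 5 and 3 to 5 without 1 library. In the interaction 1 was called with a pseudocount of 0.1, 1 without a filter, 1 after quantile normalization and 1 to 3 without 1 library. The causes were not tested. Same-numbered libraries of 2 groups correlated at -0.36 to 0.279, and no comparison had every pair over 0.1. Libraries of unlike number correlated at -0.393 to 0.427, so these values cannot decide whether the numbers pair the samples. With the number as a replicate block, 5 members were called in Ly6C between tissues, 4 in Ly6G (Ms4a6b adjusted p = 0.0712), 6 between labels in spleen, 1 in tumor and 3 in the interaction. For the 4 ratios that passed, 13 settings were added after the data were seen. With 1 FPKM added to both genes they kept an unadjusted exact permutation p under 0.05. The other settings each left out 1 library and could not raise p above 0.05, as tumor and spleen did not overlap within either label. Depth is unknown, so no counting error can be given for the low values of Ms4a2, Ms4a4b and Ms4a7.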
